A study of Homo sapiens with 6 samples.

Results

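The microRNA genes MIR23A, MIR27A and MIR24-2 on chromosome 19, and their paralogs MIR23B, MIR27B and MIR24-1 on chromosome 9, were followed in HSC3 cells treated with E7386. They were chosen by symbol from the platform annotation, because the chromosome 19 cluster was higher with the compound. All 6 had a row of their own, out of 23786 rows in the table. The comparison of E7386 with DMSO used here is the one that led to their choice. Their differences are therefore given as a description, with no test.

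HSC3 is a cell line established from a human squamous carcinoma of the tongue. The E7386 group was 3 wells given 0.1 μM E7386, a small molecule described as blocking the binding of β-catenin to its coactivator CBP, in 0.1% DMSO. The DMSO group was 3 wells given the solvent alone at 0.1%. All wells had been left for 12 to 24 hours after seeding and were harvested 48 to 64 hours after treatment. RNA purified with a kit that keeps small RNAs was amplified by a whole-transcript method and hybridised to arrays. The titles call the wells biological replicates, but no label places them in separate experiments, so each p-value rests on well-to-well spread alone, which may be technical.

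MicroRNAs are cut from longer transcripts. The Microprocessor, made of DROSHA and DGCR8, releases a hairpin from the primary transcript in the nucleus, exportin-5 carries it out, and Dicer trims it to a short duplex from which one strand is loaded onto an Argonaute protein. The loaded strand pairs with messenger RNAs mainly through its seed, and silencing factors then repress the message. The clusters studied here are copies of one ancestral locus, each giving a miR-23, a miR-27 and a miR-24. Members of these families have been described as acting on proliferation, differentiation and metabolism in many cell types, carcinomas included. The rows read the hairpin genes through an amplification made for long RNA, and they do not measure mature microRNA.

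The mature strands show what the paralogs share. Their sequences, from RefSeq in build GRCh38.p14, are printed 5′ to 3′ with the seed, bases 2 to 8, in capitals, because the seed groups the 6 genes into 3 families.
miR-23a-3p: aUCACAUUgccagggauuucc
miR-23b-3p: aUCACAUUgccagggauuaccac
miR-27a-3p: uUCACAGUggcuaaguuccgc
miR-27b-3p: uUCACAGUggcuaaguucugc
miR-24-3p: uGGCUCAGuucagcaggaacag
Counted from 1 at the 5′ end, miR-23a-3p and miR-23b-3p differed by U19A over the 21 positions they share, with the base of miR-23a-3p first. miR-27a-3p and miR-27b-3p differed by C19U, with the base of miR-27a-3p first. Both substitutions lie outside the seed. MIR24-2 and MIR24-1 encode the same miR-24-3p, with 0 differences over 22 positions.

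The hairpins differ more than the mature strands, and a hairpin gene is what each row of the array reads. They are printed with the 3′ mature strand in capitals, first the chromosome 19 members in the order of transcription and then those of chromosome 9.
MIR23A: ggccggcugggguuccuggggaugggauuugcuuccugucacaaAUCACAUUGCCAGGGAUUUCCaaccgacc
MIR27A: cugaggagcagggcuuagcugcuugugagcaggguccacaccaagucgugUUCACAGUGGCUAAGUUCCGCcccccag
MIR24-2: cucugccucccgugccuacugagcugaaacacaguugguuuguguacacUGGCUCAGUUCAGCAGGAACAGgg
MIR23B: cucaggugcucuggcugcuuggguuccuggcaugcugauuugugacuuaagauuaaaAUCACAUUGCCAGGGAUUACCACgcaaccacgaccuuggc
MIR27B: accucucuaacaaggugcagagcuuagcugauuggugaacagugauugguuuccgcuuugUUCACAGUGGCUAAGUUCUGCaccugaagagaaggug
MIR24-1: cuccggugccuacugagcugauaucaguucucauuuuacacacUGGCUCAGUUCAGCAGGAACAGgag
In global alignments the hairpins of MIR23A and MIR23B were identical in 62.6% of 99 alignment columns, those of MIR27A and MIR27B in 58.6% of 99, and those of MIR24-2 and MIR24-1 in 76% of 75. The longest run of bases shared by a pair was 20 for the miR-23 and miR-27 genes and 27 for the miR-24 genes. The sequences of the array's probes were not used here, so signal that one copy may give to the row of the other was not tested.

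In build GRCh38.p14 the chromosome 19 hairpins lie on the minus strand, MIR23A at chr19:13836587-13836659, MIR27A at chr19:13836440-13836517 and MIR24-2 at chr19:13836287-13836359, within 373 bases. They lie inside MIR23AHG, a noncoding gene. The chromosome 9 hairpins lie on the plus strand, MIR23B at chr9:95085208-95085304, MIR27B at chr9:95085445-95085541 and MIR24-1 at chr9:95086021-95086088, within 881 bases. They lie inside AOPEP, which encodes an aminopeptidase. MIR3074, a microRNA gene on the minus strand, covers all 68 bases of the MIR24-1 hairpin.

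Every member was higher with E7386, and the 3 genes on chromosome 19 differed by more than their paralogs on chromosome 9. Values are log2 expression after RMA, a method that corrects background, makes the arrays' distributions alike and combines a gene's probes. The median row of the table lay at 3.75 on this scale. RMA compresses differences near the bottom, gives no detection call, and leaves no trace of a change in total RNA per cell. A higher share of cells expressing a gene cannot be told apart from more of its RNA per cell.

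MIR27A, the source of miR-27a, read 7.05, 6.96 and 7.33 in the E7386 wells and 4.79, 4.32 and 4.61 in the DMSO wells. Its mean was 7.11 ± 0.191 with E7386 and 4.57 ± 0.238 with DMSO (SD, n = 3 each), a difference of 2.54 ± 0.151 (SE), or 5.82-fold. The lowest E7386 well lay well above the highest DMSO well. MIR23A, which gives miR-23a, read 5.21, 4.95 and 4.55 with E7386 and 2.98, 3.23 and 3.38 with DMSO, a difference of 1.70 ± 0.181, or 3.26-fold. For MIR24-2, one of the loci of miR-24, the wells read 4.86, 5.48 and 5.29 with E7386 and 3.40, 3.68 and 3.31 with DMSO, a difference of 1.75 ± 0.174, or 3.36-fold. In all 3 genes the groups stood apart by more than the range within either group. MIR23A and MIR24-2 lay below the median row in DMSO and above it with E7386, so the sizes of their differences are uncertain.

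On chromosome 9 the pattern was the same in direction and smaller in size. MIR27B read 3.63, 3.69 and 3.11 in the E7386 wells and 1.75, 2.31 and 2.42 in the DMSO wells, a difference of 1.32 ± 0.217, or 2.49-fold. The first DMSO well was the lowest. MIR23B read 4.57, 4.76 and 4.56 with E7386 and 3.43, 3.92 and 3.71 with DMSO, a difference of 0.945 ± 0.139, or 1.93-fold. MIR24-1 read 2.80, 2.29 and 3.17 with E7386 and 2.28, 2.10 and 2.24 with DMSO, a difference of 0.55 ± 0.207, or 1.46-fold. Its second E7386 well sat next to the highest DMSO well, and without the third E7386 well the difference was 0.34. MIR27B and MIR24-1 lay below the median row in both groups, and MIR23B, at 3.69 on average in DMSO, lay just below it there. The sizes of these differences are therefore uncertain too.

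In all 6 members the 3 E7386 values lay above the 3 DMSO values, as they did in 18.1% of all rows. The members were chosen on this contrast, so nothing is read from that count. Set side by side, the differences were 1.70 for MIR23A and 0.945 for MIR23B, 2.54 for MIR27A and 1.32 for MIR27B, and 1.75 for MIR24-2 and 0.55 for MIR24-1. In each family the chromosome 19 gene exceeded its paralog, by 0.76 for miR-23, 1.22 for miR-27 and 1.20 for miR-24 on the log2 scale. The gap between the clusters was not tested, because the first cluster was chosen for its difference. In both clusters the miR-27 gene differed by more than the miR-23 and miR-24 genes. The median difference was 1.75 in the MIR23A cluster and 0.945 in the MIR23B cluster.

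**Figure D1:**
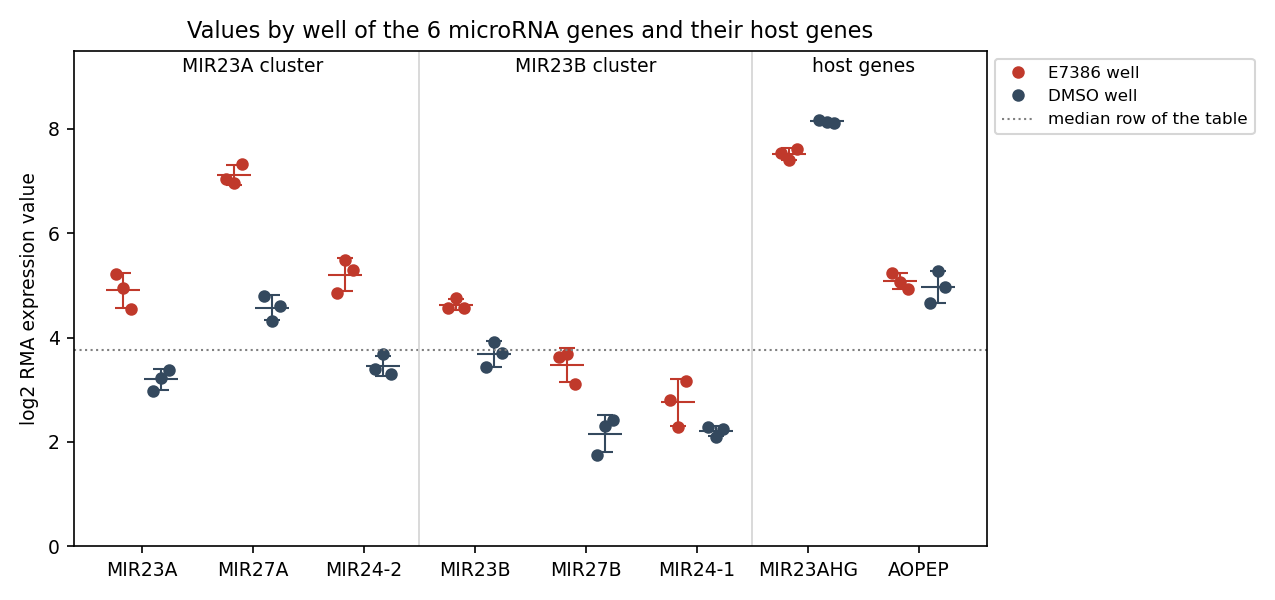
Log2 RMA values (vertical axis) of the 6 microRNA genes and their host genes, with E7386 wells in red left of DMSO wells in dark blue, means as horizontal lines and SD as bars (n = 3). MIR27A stands at 7.11 with E7386 and 4.57 with DMSO, whereas its host MIR23AHG stands at 7.52 with E7386 and 8.15 with DMSO.

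Averaged over its 3 genes in each well, the MIR23A cluster gave 5.71, 5.80 and 5.72 in the E7386 wells and 3.72, 3.74 and 3.77 in the DMSO wells. These averages varied less between wells than the single genes did. The highest E7386 well differed from gene to gene, being the first for MIR23A, the third for MIR27A and the second for MIR24-2. The MIR23B cluster averaged 3.67, 3.58 and 3.61 with E7386 and 2.49, 2.78 and 2.79 with DMSO. Its first DMSO well was the low one, as for MIR27B and MIR23B.

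The host gene of the chromosome 19 cluster went the other way. MIR23AHG, the noncoding gene whose transcript holds the 3 hairpins, read 7.54, 7.40 and 7.62 in the E7386 wells and 8.18, 8.14 and 8.12 in the DMSO wells. It fell by 0.63 ± 0.0913 (SE) on the log2 scale, a 1.55-fold decrease (limma adjusted p = 0.0034), and the call held in all 11 alternative fits. So the host's row was lower in the same wells in which the rows for its 3 hairpins were higher. The sequences of the array's probes were not used here. Whether the hairpin rows share probes with the host's row was therefore not tested. AOPEP, the host of the chromosome 9 cluster, averaged 5.09 ± 0.151 with E7386 and 4.97 ± 0.307 with DMSO (SD, n = 3 each), with overlapping wells (difference 0.12 ± 0.164, limma adjusted p = 0.71). MIR3074, on the strand opposite MIR24-1, averaged 1.37 with E7386 and 1.30 with DMSO and did not pass the test (difference 0.062 ± 0.137, limma adjusted p = 0.82).

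Most genes next to the clusters were higher with E7386, many of them by little, and only MRI1 and PTCH1 were called. Among the 3 nearest measured genes on each side of the MIR23A cluster, MRI1, a methionine salvage enzyme, rose by 0.76 ± 0.0875 (limma adjusted p = 0.0014). ZSWIM4, the nearest on its side, differed by 0.44 ± 0.134 and missed the threshold (limma adjusted p = 0.061), though fits with an intensity trend or without dim rows called it (adjusted p = 0.045 and 0.022). NANOS3 and C19orf53 differed by 0.21 and -0.072 and were not called. The next microRNA genes, MIR181C and MIR181D, differed by 0.11 ± 0.175 and 0.012 ± 0.196 and were not called either. Beside the MIR23B cluster, PTCH1, which encodes the Hedgehog receptor, rose by 0.89 ± 0.1 (limma adjusted p = 0.0012). FANCC, a gene of the Fanconi DNA repair pathway that lies between PTCH1 and the cluster, differed by 0.14 ± 0.0972 and was not called. On the other side MIR2278 and the gluconeogenic enzyme genes FBP1 and FBP2 differed by 0.029, -0.043 and 0.098, and LOC100507346 beyond PTCH1 differed by 0.23, all uncalled.

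**Figure D2:**
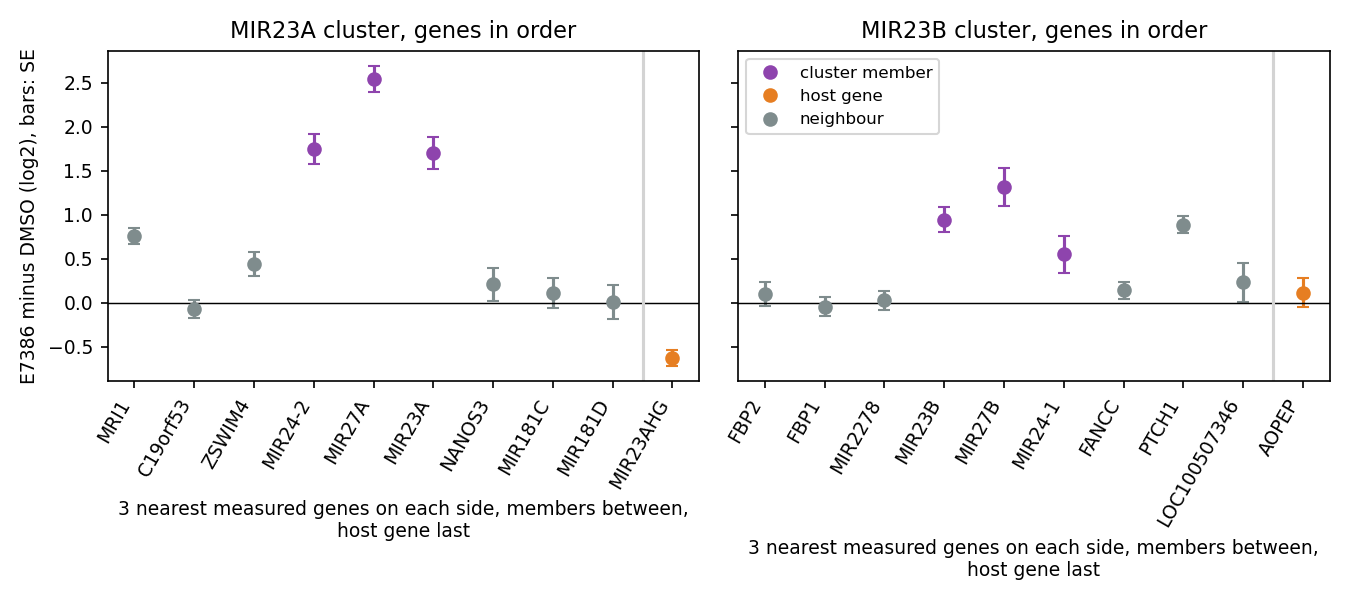
E7386 minus DMSO on the log2 scale (vertical axis, bars are SE) for each cluster's members in purple, the nearest measured genes in grey in chromosomal order, and the host gene in orange. The 3 chromosome 19 members stand between 1.70 and 2.54 while their host MIR23AHG stands at -0.63.

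The members were set beside the other microRNA genes on the array. Outside both clusters 1091 rows carried a microRNA gene symbol, and their median difference was -0.028, against -0.016 over all rows. Of these, 27 rose and 21 fell, or 2.47% and 1.92%, against 9.93% of all rows that rose and 8.69% that fell. Most microRNA rows were dim, 885 of the 1091 lying below the median row in DMSO. Ordered by difference among all 1097 microRNA rows, MIR27A was the first, MIR24-2 the third and MIR23A the fourth. MIR27B, MIR23B and MIR24-1 stood at places 8, 13 and 32. The chromosome 19 genes were chosen for their rise in this contrast, so nothing is read from their places. For comparison with another class of small RNA, a set chosen after its values were seen, 26 of 315 small nucleolar RNA rows rose and 16 fell, or 8.25% and 5.08%, with a median of 0.026.

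Among the other microRNA genes the largest called rise was that of MIR196B, which lies in the HOXA cluster. It read 6.38, 6.14 and 6.29 in the E7386 wells and 3.81, 4.45 and 5.03 in the DMSO wells, a rise of 1.84 ± 0.274 (limma adjusted p = 0.0038). Its DMSO wells were spread widely, yet all lay below the E7386 wells. MIR224 rose by 1.57 ± 0.184 and MIR103A2 by 1.55 ± 0.265 (limma adjusted p = 0.0014 and 0.0066), both lying below the median row in either group. GABRE, the receptor subunit gene that holds MIR224, rose by 0.60 ± 0.151 (limma adjusted p = 0.031), whereas PANK2, the coenzyme A synthesis gene that holds MIR103A2, differed by -0.18 ± 0.117 and was not called.

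The largest falls were those of MIR5047, MIR891A and MIR3064. MIR5047 read 6.11, 6.15 and 6.14 with E7386 and 7.60, 7.74 and 7.57 with DMSO, a 2.83-fold fall (limma adjusted p = 8.8e-05). MIR891A fell by 1.27 ± 0.252 and MIR3064 by 1.24 ± 0.101 on the log2 scale (limma adjusted p = 0.012 and 0.0003). MIR5047 and MIR3064 both lie inside DDX5, which encodes a helicase that assists the Microprocessor. DDX5 itself averaged 9.80 with E7386 and 9.96 with DMSO and was not called (difference -0.16 ± 0.0944, limma adjusted p = 0.31). So here too the hairpin rows and the row of the gene around them gave different values. Over the 37 pairs of a called microRNA row outside both clusters and a measured gene that overlaps it, the overlapping gene was called in the same direction in 18, was not called in 18 and was called in the opposite direction in 1, MIR635 and PRKAR1A. Of all rows 9.93% rose and 8.69% fell. The pairs are not independent, since genes such as DDX5, MCM7, NR6A1 and MIR181A2HG each stand in more than one. MIR635 also overlaps WIPI1 and ARSG, which both rose.

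**Figure D3:**
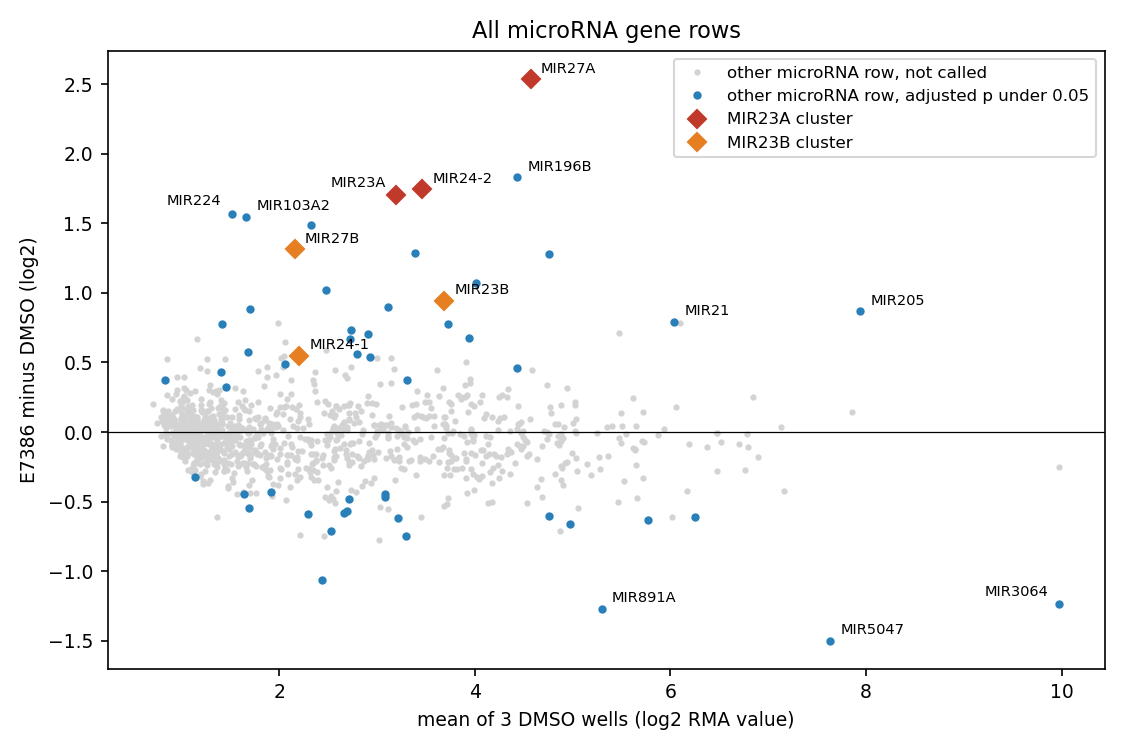
Difference between E7386 and DMSO (vertical axis, log2) against the DMSO mean (horizontal axis, log2 RMA value) for 1097 microRNA gene rows, with called rows outside the clusters in blue. The red diamonds of the MIR23A cluster stand at 1.70 to 2.54 and the orange diamonds of the MIR23B cluster at 0.55 to 1.32, while the median of the other rows is -0.028.

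To see how members of one cluster go together elsewhere, microRNA genes on one strand with gaps up to 10 kb were joined into clusters. Joining followed their order in RefSeq, and the 17 clusters so obtained with 3 or more rows were ordered by their median difference. The 17 do not hold every group of nearby microRNA genes. MIR106B and MIR93, both inside MCM7, rose by 0.67 and 0.70 and stand in none of them. MIR25, uncalled at 0.041, is absent too. The places below therefore hold among the 17 alone. The MIR23A cluster was the first at 1.75 and the MIR23B cluster the second at 0.945. The third, the let-7 cluster of MIRLET7A1, MIRLET7F1 and MIRLET7D, had a median of 0.55 and a range of 0.056 to 0.67. Medians of the other 14 clusters ran from -0.21 to 0.15. This order repeats the values by which the first cluster was chosen and is a description of these arrays. MIR23C, the only other measured gene found by symbol whose mature strand carries one of the 3 seeds, printed here to show the shared bases, stayed low in all wells.
miR-23c: aUCACAUUgccagugauuaccc
It read 1.46, 1.40 and 1.38 with E7386 and 1.54, 1.33 and 1.42 with DMSO (difference -0.016 ± 0.0916, limma adjusted p = 0.94).

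**Figure D4:**
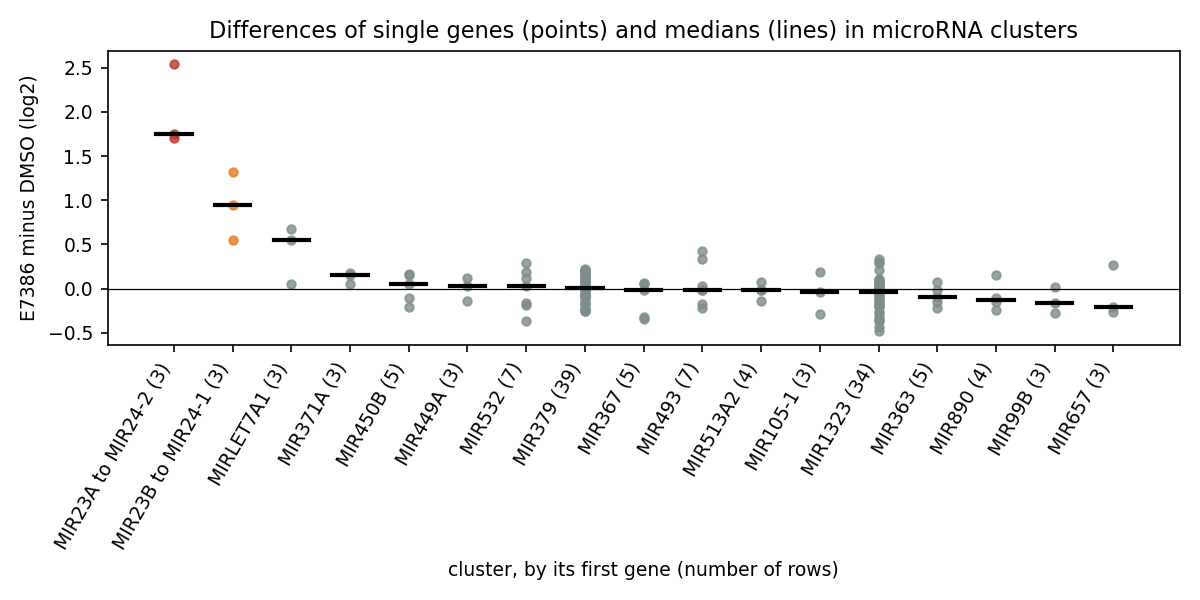
E7386 minus DMSO (vertical axis, log2) for each gene (points) and the median (black lines) of 17 microRNA clusters named by the first gene in chromosomal order, apart from the leftmost pair, which are named from miR-23 to miR-24 gene. The points of the MIR23A cluster lie at 1.70 to 2.54 and those of the MIR23B cluster at 0.55 to 1.32. No other of the 17 clusters drawn has a median above 0.55, and the 17 do not hold every group of nearby microRNA genes.

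Genes that process and use microRNAs changed in part. Of 14 measured genes of nuclear processing 2 rose and 3 fell, 14.3% and 21.4%, with a median of -0.016. Over protein-coding rows the shares were 11.5% and 10.4%. They are not matched for level, so nothing is read from the comparison. DGCR8, the hairpin-binding partner of DROSHA, read 7.01, 7.08 and 7.08 in the E7386 wells and 6.44, 6.52 and 6.35 in the DMSO wells. It rose by 0.62 ± 0.0875 (limma adjusted p = 0.003), with the groups far apart. The nuclease gene DROSHA averaged 7.43 ± 0.0301 with E7386 and 7.43 ± 0.0721 with DMSO (SD, n = 3 each) and was not called. DDX17, a helicase gene and paralog of DDX5, rose by 0.34 ± 0.0803 (limma adjusted p = 0.024). RAN, the GTPase that powers export, fell by 0.60 ± 0.0933, the splicing factor gene SRSF3 fell by 0.49 ± 0.0865, and ILF2, of a double-stranded RNA-binding complex, fell by 0.36 ± 0.0833 (limma adjusted p = 0.0046, 0.0076 and 0.023). For ILF2 all wells but the first DMSO well were needed for the call (adjusted p = 0.052 to 0.077 without one of them). The export receptor gene XPO5 differed by -0.22 ± 0.0961 and was not called.

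Of 17 cytoplasmic processing genes 3 rose and 1 fell, 17.6% and 5.88% against 11.5% and 10.4% of protein-coding rows, with a median of -0.045. The ones that rose were Argonaute genes. AGO4 rose by 0.90 ± 0.115 and AGO3 by 0.88 ± 0.0971 (limma adjusted p = 0.002 and 0.0011). AGO2, the Argonaute that can slice its target, rose by 0.32 ± 0.0824 (limma adjusted p = 0.032), a call that needed all 6 wells (adjusted p = 0.061 to 0.11 without any one). AGO1 differed by 0.001 ± 0.092 and DICER1 by -0.12 ± 0.0819, neither of them called. HSP90AB1, a chaperone used in loading Argonautes, fell by 0.62 ± 0.138 (limma adjusted p = 0.018). Without the first or the second DMSO well it missed the threshold (adjusted p = 0.055 and 0.063).

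Among 21 silencing factors 3 rose and 0 fell, 14.3% and 0% against 11.5% and 10.4% of protein-coding rows, with a median of -0.014. ZSWIM8, a ubiquitin ligase subunit that acts in the decay of microRNAs bound to certain targets, rose by 0.71 ± 0.0966, the decapping factor gene DCP1B by 0.63 ± 0.116 and TNRC6C, an Argonaute-binding scaffold, by 0.56 ± 0.0929 (limma adjusted p = 0.0026, 0.0088 and 0.0058). Its paralogs TNRC6A and TNRC6B differed by -0.36 and 0.023 and were not called. Over the 52 measured genes of the 3 lists 8 rose and 4 fell, 15.4% and 7.69%, against 11.5% and 10.4% of protein-coding rows. The median DMSO level was 7.19 in these lists and 4.61 over protein-coding rows. The shares are therefore not matched for level, and nothing is read from how near they lie.

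Factors reported in other cells to act on the clusters included several that rose. Of 11 measured regulators 5 rose and 0 fell, with a median of 0.25, so 45.5% rose against 11.5% of protein-coding rows. Nothing is read from this share. The list was drawn up with earlier results of these data known, and it holds reported activators and repressors together. Its median DMSO level was 7.33, against 4.61 over protein-coding rows. RELA, the NF-κB subunit, read 9.78 ± 0.0665 with E7386 and 8.92 ± 0.108 with DMSO (SD, n = 3 each), a rise of 0.86 ± 0.0947 (limma adjusted p = 0.0011). NFATC3 rose by 0.57 ± 0.0955 and the TGF-β effector gene SMAD3 by 0.51 ± 0.103 (limma adjusted p = 0.006 and 0.013). MYC, reported as a repressor of miR-23 genes in lymphoid cells, rose by 0.43 ± 0.0864 (limma adjusted p = 0.012), though leaving out the third E7386 well gave 0.054. RUNX2, reported as a repressor of the MIR23A cluster in osteoblasts, rose by 0.45 ± 0.108 (limma adjusted p = 0.024), but missed the threshold without the first or the second well of either group (adjusted p = 0.057 to 0.081). SPI1, which encodes a myeloid factor that activates the MIR23A cluster, lay at 2.91 with E7386 and 3.15 with DMSO, below the median row, and was not called.

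Reported targets of the 3 families went both ways. The lists hold genes described as targets in other cells, written from general knowledge with earlier results of these data known. No binding was measured here. The lists had median DMSO levels of 5.51 to 7.02, against 4.61 over protein-coding rows, so the shares below are not matched for level. Of 23 measured miR-23 targets 9 rose and 1 fell, 39.1% and 4.35%, against 11.5% and 10.4% of protein-coding rows, with a median of 0.27. MTSS1, an actin and membrane regulator, rose by 1.03 ± 0.101 and ZEB1, a repressor of epithelial genes, by 0.94 ± 0.2 (limma adjusted p = 0.00065 and 0.016). ZEB1 started below the median row, at 2.94 in DMSO, and missed the threshold without E7386 well 2, DMSO well 2 or DMSO well 3 (adjusted p = 0.055 to 0.06). The ubiquitin ligase gene FBXO32 rose by 0.56 ± 0.116 (limma adjusted p = 0.014, 0.051 without the first E7386 well). NOTCH1 rose by 0.55 ± 0.121 (limma adjusted p = 0.018), a call that needed E7386 wells 1 and 3 and DMSO wells 2 and 3 (adjusted p = 0.052 to 0.062 without one of them). IL6R, the interleukin-6 receptor gene, was the one that fell, by 0.45 ± 0.0862 (limma adjusted p = 0.01).

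Among 22 miR-27 targets 6 rose and 3 fell, 27.3% and 13.6%, against 11.5% and 10.4% of protein-coding rows, with a median of 0.075. The share that fell was near that background. CYP1B1, a cytochrome P450 gene, read 6.02, 5.79 and 5.86 in the E7386 wells and 4.29, 4.01 and 3.90 in the DMSO wells, a rise of 1.82 ± 0.124 (limma adjusted p = 0.00016). MMP13, which encodes a collagenase, read 4.14, 4.24 and 3.69 with E7386 and 5.76, 5.72 and 5.65 with DMSO, a fall of 1.68 on the log2 scale (limma adjusted p = 0.00041). Both are reported targets of miR-27b, and they moved in opposite directions with well-separated groups. SPRY2, a feedback inhibitor of growth factor signalling, rose by 0.81 ± 0.115 and the TGF-β effector gene SMAD2 by 0.64 ± 0.117 (limma adjusted p = 0.0032 and 0.0085). FBXW7, the ubiquitin ligase subunit that targets cyclin E and MYC, fell by 0.53 ± 0.103 (limma adjusted p = 0.012). FOXO1 and ZBTB10 differed by 0.23 and 0.023 and were not called.

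The miR-24 list held more called falls than called rises. Of 28 measured members 6 rose and 12 fell, 21.4% and 42.9%, against 11.5% and 10.4% of protein-coding rows, with a median of -0.14. INSIG1, the sterol-regulated membrane protein, was the lowest at -2.82 ± 0.101, and the cell cycle genes CCNA2 and CDK1 followed at -1.83 ± 0.0895 and -1.43 ± 0.105 (limma adjusted p = 4.4e-05, 5.8e-05 and 0.0002). AURKB, H2AX, E2F2, MCM10, MCM4, FEN1 and BRCA1 also fell, by 1.03 for AURKB down to 0.34 for BRCA1. Most of the 12 called falls were thus genes of the cell cycle or of DNA replication and repair. TRIB3, a stress-response pseudokinase, rose by 1.89 ± 0.125 (limma adjusted p = 0.00014). Over the 72 measured genes of the 3 target lists 21 rose and 16 fell, 29.2% and 22.2%, against the same 11.5% and 10.4%. Whether any of these changes follow from the microRNAs was not tested.

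**Figure D5:**
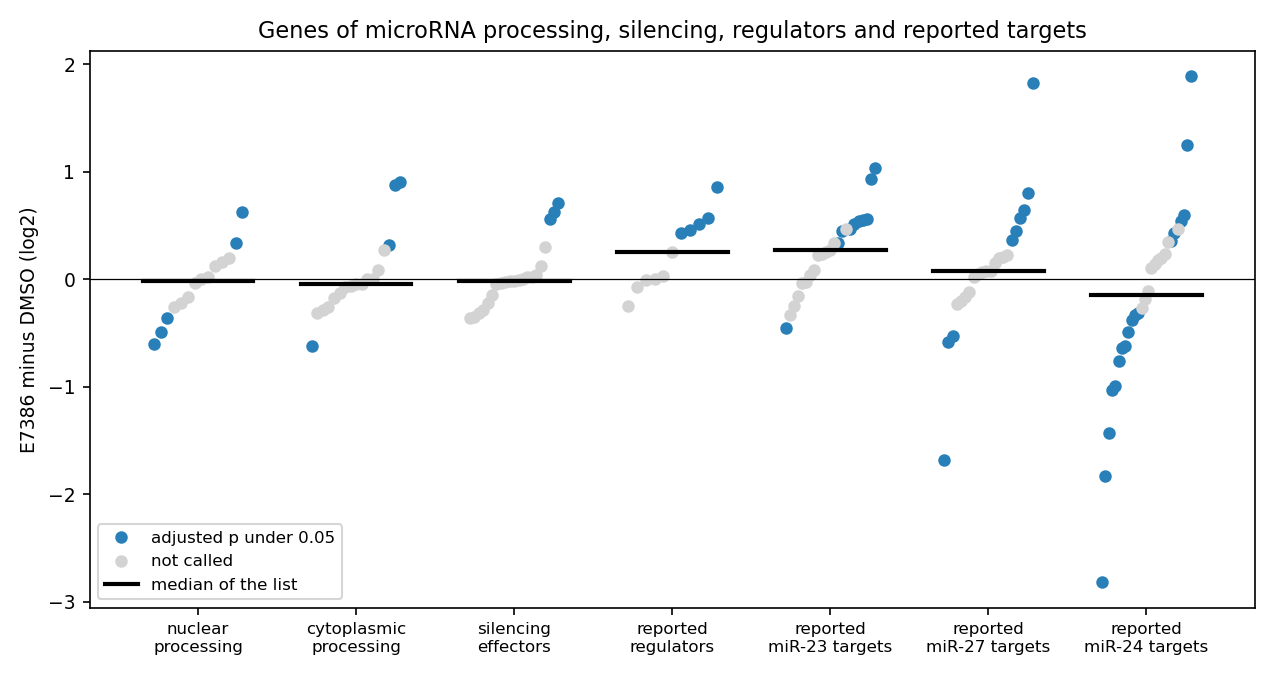
E7386 minus DMSO (vertical axis, log2) for each measured gene of 7 lists, with genes past a limma adjusted p of 0.05 in blue, others in grey and list medians as black lines. The medians of the processing and silencing lists lie between -0.045 and -0.014, and that of the miR-24 target list at -0.14 with points down to -2.82.

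Genes whose profile over the 6 arrays was most like the mean of the MIR23A cluster were found by Pearson's correlation. The 5 highest were FOXJ3, a forkhead factor gene, NTN4, which encodes a netrin, TIMP2, a metalloproteinase inhibitor gene, MAL2, of vesicle transport, and TBL1X, a corepressor subunit gene. Their correlations ran from 0.9989 to 0.9996 and their differences from 0.38 for FOXJ3 to 1.92 for TBL1X. As 1400 rows reached 0.95, the measure mainly reflects the step between the groups. On the same measure MIR23B gave 0.954, MIR27B 0.928, MIR24-1 0.709, AOPEP 0.282 and MIR23AHG -0.984.

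The wells differed by treatment across the table, with correlations over rows of 0.992 to 0.995 within groups and 0.982 to 0.985 between them, and 4430 rows called, 18.6%. The squamous label fitted its markers, as 8 measured epithelial markers had means of 8.85 to 11.01 with E7386 and 8.59 to 11.6 with DMSO. KRT14 and KRT5 were the 2 that fell. Of 23 measured fibroblast, leukocyte and endothelial markers 0 rose and 1, FAP, fell, and the endothelial ones stayed at or below 4.20 with E7386 and 4.46 with DMSO. COL1A1 at 5.30 with E7386 and 5.25 with DMSO, and CD68, also a lysosomal gene of other cells, at 9.03 with E7386 and 9.06 with DMSO, were the highest.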

How the data were processed

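The deposited log2 values came from RMA in affy 1.36.1, per the submitters' processing notes. With build and probe set definition not given in the sources used here, names came from the platform annotation, which gave 1 symbol to 22458 of 23786 rows, and the other 1328 stayed in the fit unnamed. The deposited log2 values were fitted without further normalization in limma 3.58.1 under R 4.3.3, with treatment as the only term and a constant prior. P-values were two-sided and adjusted over all rows by Benjamini-Hochberg, and a row counted as called below 0.05. Each difference is E7386 minus DMSO. The number of arrays limits the precision, with a median SD within groups of 0.15. The fit was also run on simulated data with independent noise and few changed rows, which checks the code and not the results for these wells. Sequences were matched by symbol for all 6 members, and hairpins were aligned with Biopython 1.88.

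Named genes were the members, the host genes, the 3 nearest measured genes on each side, core processing factors, MYC, FBXW7 and SPRY2, up to 4 called genes with the largest difference per list, the 3 largest rises and falls of other microRNA rows, and the 5 most similar profiles. Other genes were named after their values were seen. The members and lists were chosen with earlier results of these data known. Other settings tried were median centring, a second quantile normalization, a filter on dim rows, an intensity trend with a robust prior, the replicate number as a block, and leaving out each well.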

Additional observations from a re-analysis of the deposited data

How the results depend on the processing

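All 6 members kept their direction in every alternative that tested them, and MIR27B and MIR24-1 were not tested when dim rows were left out. Leaving out single wells gave a median difference of 1.68 to 1.92 for the MIR23A cluster and 0.82 to 1.06 for the MIR23B cluster, which could not be had without dim rows. Calls over all rows numbered 2907 to 3635 when one well was left out, the fewest without the third E7386 well, against 4430, and up to 5482 in other fits. Called microRNA rows outside both clusters numbered 26 to 45 without one well, again the fewest without the third E7386 well, against 48, and 29 without dim rows. Called processing and silencing genes numbered 8 to 9 without one well, against 12, but 20 without dim rows and 19 with an intensity trend and robust prior. Called target genes numbered 28 to 31 without one well, against 37, and called hosts and neighbours stayed at 3 or 4. Deviations of same-numbered wells from their group means had correlations of 0.051, 0.12 and -0.0077. Those of differently numbered wells ran from -0.098 to 0.041. With 3 wells per group, such weak correlations cannot decide whether the replicate numbers pair the wells. With the replicate number as a block, 3 of the 38 called named genes, AGO2, ILF2 and RUNX2, lost their call, and AGO2 had a limma adjusted p of 0.076. Of the 38, 30 kept their call in every setting that tested them.

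Some uncalled genes near zero changed sign. After renewed quantile normalization DROSHA was at 0.0033 and MIR181D at -0.017. Leaving out single wells gave differences of -0.037 to 0.035 for DROSHA, -0.17 to 0.18 for MIR181D, -0.076 to 0.22 for MIR181C, -0.038 to 0.27 for AOPEP, -0.06 to 0.075 for MIR2278, -0.11 to 0.018 for FBP1, -0.035 to 0.22 for FBP2 and -0.016 to 0.42 for LOC100507346. Single wells also moved MIR24-1 between 0.34 and 0.78. Most microRNA rows are dim, where RMA compresses differences, so a missed call there says little.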

Other observations

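Several microRNA genes named in squamous epithelium and carcinoma were also among the called rises, and they were picked after their values were seen. Other epithelial microRNA genes were not among them. MIR203A, MIR200A, MIR200B, MIR200C, MIR141 and MIR429 differed by -0.19 to 0.019, were not called and lay below the median row. MIR205, an epithelial microRNA gene, read 8.79, 8.72 and 8.91 in the E7386 wells and 8.09, 7.71 and 8.02 in the DMSO wells, a rise of 0.87 ± 0.122 (limma adjusted p = 0.003). Its host MIR205HG rose by 0.71 ± 0.101 (limma adjusted p = 0.0032). MIR21 read 6.93, 6.59 and 6.98 with E7386 and 6.05, 5.98 and 6.08 with DMSO, a rise of 0.79 ± 0.12 (limma adjusted p = 0.004), whereas VMP1, which overlaps it, differed by 0.081 ± 0.0858 and was not called. MIR31 rose by 0.90 ± 0.159 (limma adjusted p = 0.0077), and its host MIR31HG differed by 0.13 ± 0.108 and was not called. The neighbouring genes MIR221 and MIR222 rose by 1.07 ± 0.19 and 1.49 ± 0.16 (limma adjusted p = 0.0074 and 0.00098), with wells at 5.02, 4.91 and 5.35 with E7386 and 4.16, 3.63 and 4.26 with DMSO for MIR221. MIR181B1 rose by 1.29 ± 0.189 (limma adjusted p = 0.0035) and its host MIR181A1HG by 0.83 ± 0.13 (limma adjusted p = 0.0047). Hairpin rows thus rose both where the overlapping gene was called higher and where it was not called.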
